A study of Mus musculus with 9 samples.

Results

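The transcriptome of heart endothelium from 22-week-old mice of the hypertensive line BPH/2J was compared at once with that of 4-week-old BPH/2J mice and of 22-week-old BPN/3J mice. The level of each gene in 22-week BPH/2J was set against the mean of the log2 levels of both other groups, each weighted 0.5, which is called the averaged contrast below. A gene was taken as apart from both groups when it was called in the averaged contrast and in each pairwise contrast, always with the same sign, at an adjusted p under 0.05. Of 15277 tested genes, 1617 met this rule, with 895 higher and 722 lower in 22-week BPH/2J than in both groups.

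Mice of BPH/2J were selected for raised blood pressure, and BPN/3J serves as their line of normal pressure. Endothelial cells were taken from fresh hearts with antibody-coated microbeads, and their polyadenylated RNA was sequenced. Each of the 3 groups, BPH/2J at 4 weeks, BPH/2J at 22 weeks and BPN/3J at 22 weeks, had 3 libraries, and the labels give neither sex nor whether a library came from 1 animal or from pooled hearts. The libraries of 4-week BPH/2J share the strain and those of BPN/3J share the age of the 22-week BPH/2J libraries. With no 4-week BPN/3J group, the change that comes with age in the normotensive line was not measured. As a result age and blood pressure cannot be told apart in the difference from 4-week BPH/2J, and strain and blood pressure cannot be told apart in the difference from BPN/3J.

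Endothelium lines every vessel and the chambers of the heart, sets the permeability and tone of the wall, holds platelets and clotting in check and controls the entry of leukocytes. In the heart most of it is capillary, with smaller arterial, venous, endocardial and lymphatic parts that are told apart by their own marker genes. Cells released from tissue and bound to beads carry some RNA of their neighbours, such as cardiomyocytes, mural cells and resident macrophages.

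The libraries held 28806840 to 32913813 counted reads each. The endothelial genes Cdh5, Pecam1, Kdr and Tie1 were at 1072 to 3287 CPM (counts scaled to library size with trimmed mean of M values factors) in every library, while Myh6 of cardiomyocytes reached at most 183 and Col1a1 of fibroblasts at most 86.4. The mural cell genes Rgs5, at 412 to 935 CPM, and Myh11, at 212 to 340 CPM, were well above these. Summed over 29 cardiomyocyte markers, of which 27 passed the filter on low counts, the level was 923 to 1076 CPM for 22-week BPH/2J, 944 to 1108 CPM for the 4-week mice and 1488 to 1745 CPM for BPN/3J. One library stood apart from its own group: replicate 1 of 4-week BPH/2J had 2.63% mitochondrial counts, while replicates 2 and 3 had 1.19% and 1.33%. The share was 1.45% to 1.91% in 22-week BPH/2J and 2.02% to 2.78% in BPN/3J, so it also differed between the groups compared, and its part in the results was not tested. The counts of replicate 1 of 4-week BPH/2J differed from those of replicates 2 and 3 by a chi-square of 53.5 and 46.4 per degree of freedom, against 6.49 between the latter.

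In the averaged contrast 5373 genes (35.2% of those tested) were called, 2755 higher and 2618 lower. Of these only 30.1% were apart from both groups. Another 1938 differed from 4-week BPH/2J alone, 1599 from BPN/3J alone and 64 from neither, and 155 lay between the groups, called on opposite sides of them. Against 4-week BPH/2J alone 41% of tested genes were called (19.9% higher, 21.1% lower), against BPN/3J alone 38% (19.8% higher, 18.2% lower), and between the 4-week BPH/2J and BPN/3J groups 53.1%. For 994 genes (6.51%) in all, 22-week BPH/2J was called above one group and below the other. The genes apart from both made up 10.6% of tested genes, 5.86% higher and 4.73% lower, and these shares are the background for every list below.

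Most of these genes differed moderately. The nearer gap, the smaller of the pairwise log2 differences, had a median of 0.40 among the 895 higher genes and 0.44 among the 722 lower ones. It reached 1.5-fold for 251 higher and 271 lower genes and 2-fold for 85 and 110. All 3 libraries of 22-week BPH/2J lay above the 6 others for 861 of the higher genes and below them for 679 of the lower ones. Over all tested genes the libraries lay above the 6 others for 10.4% and below them for 7.85%. For 1083 of the 1617 genes the 4-week BPH/2J and BPN/3J groups were not called different from each other, and for 534 they were. Near the threshold, the largest of the 3 adjusted p-values was 0.0498 for Fbxl12 and 0.0499 for Dnajc10, which were inside, and 0.0501 for Mcl1 and 0.0502 for Gm16310, which were outside.

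**Figure D1:**
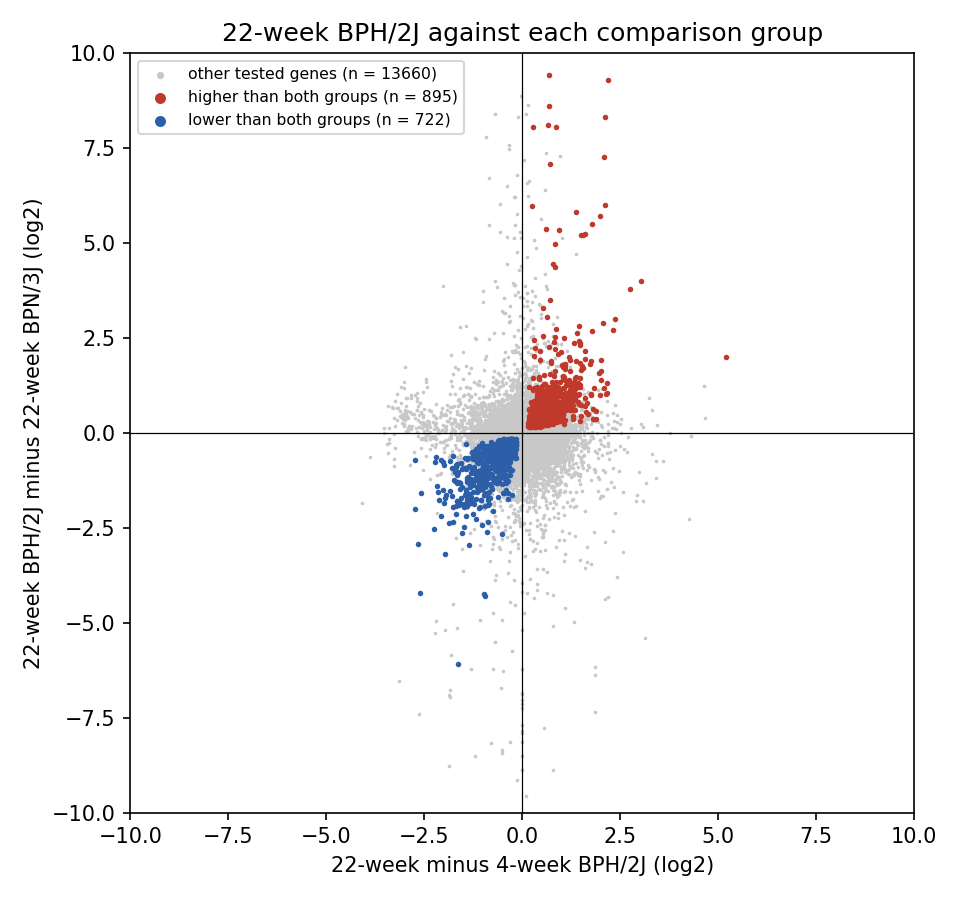
Each point is 1 of 15277 tested genes, with the log2 difference of 22-week from 4-week BPH/2J on the horizontal axis and that of 22-week BPH/2J from BPN/3J on the vertical axis. The 895 red genes in the upper right and the 722 blue genes in the lower left are apart from both groups, and 6 other genes lie beyond the axis limit of 10.

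The number of such genes depended on single libraries. It was 994 without replicate 1 and 1029 without replicate 3 of 22-week BPH/2J, and 2459 without replicate 1 of 4-week BPH/2J, the library that stood apart. The averaged contrast called 3351, 3302 and 6908 genes in the same 3 fits. With the mean log2 level of the cardiomyocyte markers as a covariate, 1116 genes were apart from both, of which 706 were among the 1617. The summed level of these markers was 1488 to 1745 CPM in BPN/3J. It was 923 to 1076 CPM in 22-week and 944 to 1108 CPM in 4-week BPH/2J, so the covariate is tied to the line. For a call lost with the covariate, cardiomyocyte RNA and line cannot be told apart. Under no setting was a gene apart in the opposite direction.

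The widest rises over both groups belonged to genes of varied function. Dbp, a clock-controlled transcription factor on chromosome 7, had 196, 197 and 229 CPM in 22-week BPH/2J, 92.5, 63.1 and 58.7 at 4 weeks and 51.9, 61.1 and 76.4 in BPN/3J. It was higher by 1.63 ± 0.14 (log2 difference ± SE, adjusted p = 4.51e-05, quasi-likelihood F test of edgeR, as for all adjusted p-values below), and every 22-week BPH/2J library exceeded 2 times the level of each of the others. Nuak1, a kinase related to AMPK, had 119, 90.3 and 125 CPM against 52.8, 31.1 and 33.1 in 4-week BPH/2J and 29.7, 34.6 and 34.6 in BPN/3J (1.64 ± 0.15, adjusted p = 6.64e-05). For both genes the other groups lay in the same range, and neither was called different between them (adjusted p = 0.419 for Dbp and 0.304 for Nuak1).

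Gdpd3, an enzyme of lysophospholipid metabolism, had the smallest adjusted p of the 30 genes with the widest gaps. Its levels were 532, 500 and 463 CPM in 22-week BPH/2J, 196, 214 and 171 at 4 weeks and 7.39, 8.90 and 10.4 in BPN/3J. Here the groups formed 3 steps, with a log2 difference of 1.36 from 4-week BPH/2J and 5.81 from BPN/3J (averaged contrast 3.59 ± 0.10, adjusted p = 4.28e-09). Klra9, a receptor of the Ly49 family of natural killer cells, was likewise near absent from BPN/3J, at 0.0338, 0.0347 and 0 CPM, while 22-week BPH/2J held 16.7, 16.7 and 17.1 CPM and 4-week BPH/2J 6.30, 2.10 and 2.67. A fold against BPN/3J is not given for Klra9, since its BPN/3J libraries held at most 1 count, and reads of this multi-copy family may be divided between its copies.

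Further genes of the extracellular space were among the widest rises. Tgfb2, a ligand of the TGF-beta family, had 17.4, 12.1 and 19.6 CPM in 22-week BPH/2J, 9.04, 3.86 and 4.70 at 4 weeks and 6.35, 7.64 and 6.35 in BPN/3J (1.38 ± 0.23, adjusted p = 0.00158). Col17a1, a transmembrane collagen, had 15.6, 15.7 and 18.7 CPM against 3.58 to 7.18 in the 6 others (1.65 ± 0.14, adjusted p = 3.77e-05). Nt5e, the ecto-enzyme CD73 that makes adenosine from AMP, had 20.1, 11.1 and 20.7 CPM against 5.40 to 8.62 in the 6 others (1.26 ± 0.17, adjusted p = 0.000525). Replicate 2 of 22-week BPH/2J was the lowest of its group in Tgfb2 and Nt5e. Mmp11, a matrix metalloproteinase, Alox12, a lipoxygenase, Plxdc1, a transmembrane protein described in tumour endothelium, and Islr2, Nat8l, Syp, Ccdc67 and Serpina1e completed the 15, with averaged log2 differences of 1.16 for Mmp11 to 3.51 for Serpina1e. Serpina1e belongs to a cluster of near-identical copies, so its level is uncertain.

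**Figure D2:**
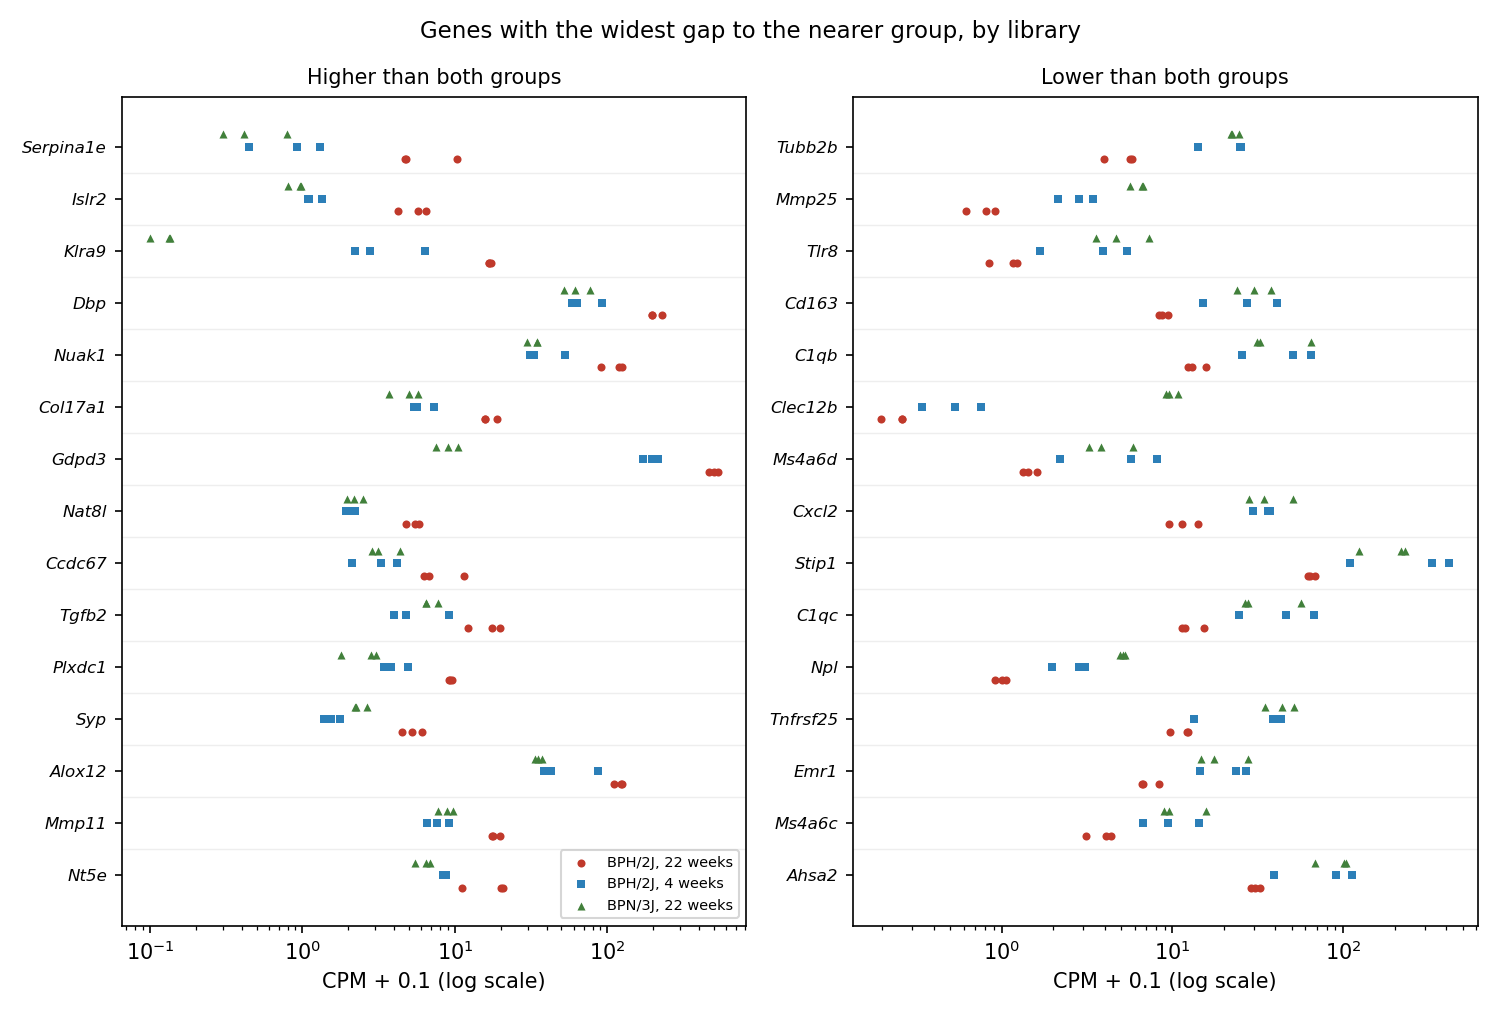
CPM plus an offset of 0.1, on a log axis, in each of the 9 libraries for the 15 higher and 15 lower genes with the widest gap to the nearer group. Eligible genes had at least 5 CPM in the highest group and no predicted or clone symbol. By the same choice the 3 red circles of 22-week BPH/2J lie outside the range of the 6 other libraries in each line.

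Among the falls ranked under the same conditions, Tubb2b, a beta-tubulin, fell most against its nearer group. It had 3.89, 5.70 and 5.51 CPM in 22-week BPH/2J, 14.0, 24.6 and 25.2 at 4 weeks and 21.9, 22.3 and 24.4 in BPN/3J (-2.13 ± 0.20, adjusted p = 7.02e-05). Of the other 14 genes, Tlr8, Cd163, C1qb, C1qc, Ms4a6d, Ms4a6c and Emr1 are known from macrophages and monocytes. Stip1 and Ahsa2 are co-chaperones of HSP90. Cxcl2 is a neutrophil-attracting chemokine, Tnfrsf25 a receptor of the TNF family, Mmp25 a membrane-bound metalloproteinase and Npl an enzyme of sialic acid breakdown. Clec12b, a C-type lectin receptor, differed most from BPN/3J, with 9.05, 9.38 and 10.7 CPM there, 0.653, 0.241 and 0.430 in 4-week BPH/2J and 0.162, 0.161 and 0.0967 in 22-week BPH/2J. The 22-week BPH/2J levels were near the limit of depth of about 0.1 CPM, so the difference from 4-week BPH/2J rests on few reads. The call of Ms4a6d was lost without BPN/3J replicate 1 (largest adjusted p of the 3 contrasts 0.0521).

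Macrophage and monocyte markers were the list with the greatest share apart from both groups. Of 24 tested members, 14 were lower than both (58.3%, against 4.73% of all tested genes) and 0 were higher, and the median averaged log2 difference was -1.08 against 0.01 over all tested genes. Among the 14 were Cd68, Cd14, Csf1r, Emr1, Fcgr1, Fcgr3, C1qa, C1qb, C1qc, Mrc1, Cd163, Cd86 and Laptm5. Without a single library the number ran from 13 to 17, the latter without replicate 1 of 4-week BPH/2J, and it was 12 with the cardiomyocyte covariate. In such bulk libraries fewer cells of a type and less RNA per cell cannot be told apart.

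Cd163, the haemoglobin scavenger receptor of resident macrophages, had 8.59, 9.27 and 8.28 CPM in 22-week BPH/2J, 15.1, 27.3 and 41.0 at 4 weeks and 37.8, 23.8 and 29.9 in BPN/3J. The 22-week BPH/2J libraries were close together and the others spread widely (-1.74 ± 0.28, adjusted p = 0.00123). Cd86, a costimulatory ligand, had 2.30, 2.32 and 2.45 CPM against 4.76, 5.52 and 7.37 in 4-week BPH/2J and 10.5, 7.44 and 7.54 in BPN/3J (-1.58 ± 0.18, adjusted p = 0.00021). Cd68, a lysosomal protein of phagocytes, had 11.3, 14.8 and 14.3 CPM against 29.1, 24.5 and 27.0 and against 24.5, 21.1 and 24.0 (-0.89 ± 0.10, adjusted p = 0.000209). The call of Cd68 was lost with the cardiomyocyte covariate (largest adjusted p 0.0795). C1qb, a chain of the first complement component, had 12.8, 15.6 and 12.2 CPM in 22-week BPH/2J against 25.5 to 64.6 in the 6 others, and C1qa and C1qc, its neighbours on chromosome 4, gave -1.49 ± 0.30 and -1.69 ± 0.34.

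The summed level of the whole list was 389 to 462 CPM in 22-week BPH/2J, 643 to 1137 in 4-week BPH/2J and 610 to 984 in BPN/3J, so 22-week BPH/2J lay below both other groups, whose ranges overlapped. Not every member took part. The fractalkine receptor Cx3cr1 had 5.93, 6.05 and 5.80 CPM in 22-week BPH/2J, between 20.03, 16.2 and 22.3 in 4-week BPH/2J and 5.06, 1.46 and 2.21 in BPN/3J. Lyz2, lysozyme and the most abundant member per length, was lower than in 4-week BPH/2J (log2 difference -1.13, adjusted p = 0.00439), while the difference of -0.66 from BPN/3J was not called (adjusted p = 0.0535). Ptprc, the CD45 antigen of all leukocytes, had 56.1, 48.3 and 72.0 CPM in 22-week BPH/2J against 42.7 to 63.6 in the 6 others and was not called in the averaged contrast (0.23 ± 0.11, adjusted p = 0.123).

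Lymphocyte and neutrophil markers did not fall with them. Of 21 tested members, 3 T cell genes were higher than both groups (14.3%) and 0 were lower. Cd8a, a co-receptor of cytotoxic T cells, had 2.17, 2.70 and 3.03 CPM in 22-week BPH/2J, 1.01, 1.48 and 0.553 at 4 weeks and 0.540, 0.313 and 0.421 in BPN/3J (2.00 ± 0.27, adjusted p = 0.000513). Cd3g and Trbc2 of the T cell receptor complex rose by 0.96 ± 0.21 and 0.70 ± 0.17. The call of Cd8a was lost with the cardiomyocyte covariate. That of Cd3g was lost with it and without replicate 3 of 22-week BPH/2J or of BPN/3J. The number of higher members was 1 without replicate 3 of 22-week BPH/2J or replicate 3 of BPN/3J, 7 without replicate 2 of 22-week BPH/2J, 6 without replicate 1 of 4-week BPH/2J and 1 with the cardiomyocyte covariate. The summed level of the list overlapped between groups, at 117 to 237 CPM in 22-week BPH/2J, 94.5 to 141 CPM at 4 weeks and 129 to 139 CPM in BPN/3J.

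Heat shock chaperones, which fold proteins and are induced by heat and other stress, had the next greatest share. Of 30 tested members, 10 were lower than both groups (33.3%) and 0 were higher, with a median averaged log2 difference of -0.61. They were Hspa8, Hsp90aa1, Hsp90ab1, Hsph1, Dnaja1, Hspd1, Chordc1, Stip1, Fkbp4 and Cacybp, most of them parts of the HSP70 and HSP90 chaperone cycle. In the promoter windows of RefSeq (build GRCm38.p6, 250 bases before the start site), 7 of the 10 genes had an entry, and Dnaja1, Fkbp4, Hspd1 and Hsph1 had at least 1 window with GAANNTTC or TTCNNGAA, the paired repeats of a heat shock element. These letters were searched on both strands, on which each motif reads the same, and the motifs can overlap each other. They occurred in 45.5% of the 11 windows of the 10 genes, in 36.4% of the 22 windows of the other listed chaperones and in 12.8% of all 32851 windows. A match is a description of the letters only.

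To show where the repeat lies, the windows of Dnaja1 (chr4:40722218-40722467, plus strand) and Fkbp4 (chr6:128438678-128438906, minus strand) are printed 5′ to 3′ without bases of protein-coding exons, with GAANNTTC in capitals, which began 124 and 151 bases before the start site:
Dnaja1: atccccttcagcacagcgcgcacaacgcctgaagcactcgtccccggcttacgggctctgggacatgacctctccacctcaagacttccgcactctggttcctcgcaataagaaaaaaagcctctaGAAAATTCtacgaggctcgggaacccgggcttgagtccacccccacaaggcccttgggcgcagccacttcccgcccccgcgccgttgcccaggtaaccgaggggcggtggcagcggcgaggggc
Fkbp4: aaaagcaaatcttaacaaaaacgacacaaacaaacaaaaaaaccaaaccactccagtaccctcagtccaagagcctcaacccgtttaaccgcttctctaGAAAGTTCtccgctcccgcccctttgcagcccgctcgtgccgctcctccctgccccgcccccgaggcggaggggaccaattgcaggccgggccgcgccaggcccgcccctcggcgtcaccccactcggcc

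Dnaja1, an HSP40 partner of HSP70, had 329, 326 and 340 CPM in 22-week BPH/2J, 471, 628 and 588 at 4 weeks and 679, 1036 and 1071 in BPN/3J (-1.12 ± 0.14, adjusted p = 0.000416). Stip1, which links HSP70 to HSP90, had 62.4, 68.0 and 64.2 CPM against 109, 417 and 332 in 4-week BPH/2J and 123, 229 and 219 in BPN/3J (-1.85 ± 0.37, adjusted p = 0.00369). Fkbp4, a co-chaperone of steroid receptors, had 86.0, 78.9 and 78.6 CPM against 91.4, 366 and 309 and against 149, 197 and 182 (-1.39 ± 0.34, adjusted p = 0.0108). In Stip1 and Fkbp4 replicate 1 of 4-week BPH/2J lay far below its group and closest to the level of 22-week BPH/2J.

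The same library was low across the list. The summed CPM was 6726 to 7972 in 22-week BPH/2J, 7818 in that library, 14416 and 12912 in replicates 2 and 3 of its group, and 10709 to 16912 in BPN/3J. Without it 17 members were apart from both groups, without replicate 1 of 22-week BPH/2J 5 were, and without replicate 2 of that group 6 were. Hsp90aa1, the inducible HSP90, had 450, 444 and 530 CPM against 648 to 1427 in the 6 others (-0.92 ± 0.16, adjusted p = 0.00197), and its call was lost without replicate 1 or 2 of 22-week BPH/2J, replicate 2 or 3 of 4-week BPH/2J and with the covariate (largest adjusted p 0.0835, 0.0747, 0.0797, 0.0517 and 0.0648). The strongly inducible Hspa1a and Hspa1b, which are near-identical copies, were not called in the averaged contrast. Hspa1a had 642, 618 and 864 CPM in 22-week BPH/2J, 602, 506 and 505 at 4 weeks and 936, 1123 and 1577 in BPN/3J. The transcription factor of the response, Hsf1, had 57.1 to 76.4 CPM over all libraries and was not called (-0.12 ± 0.08, adjusted p = 0.288).

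**Figure D3:**
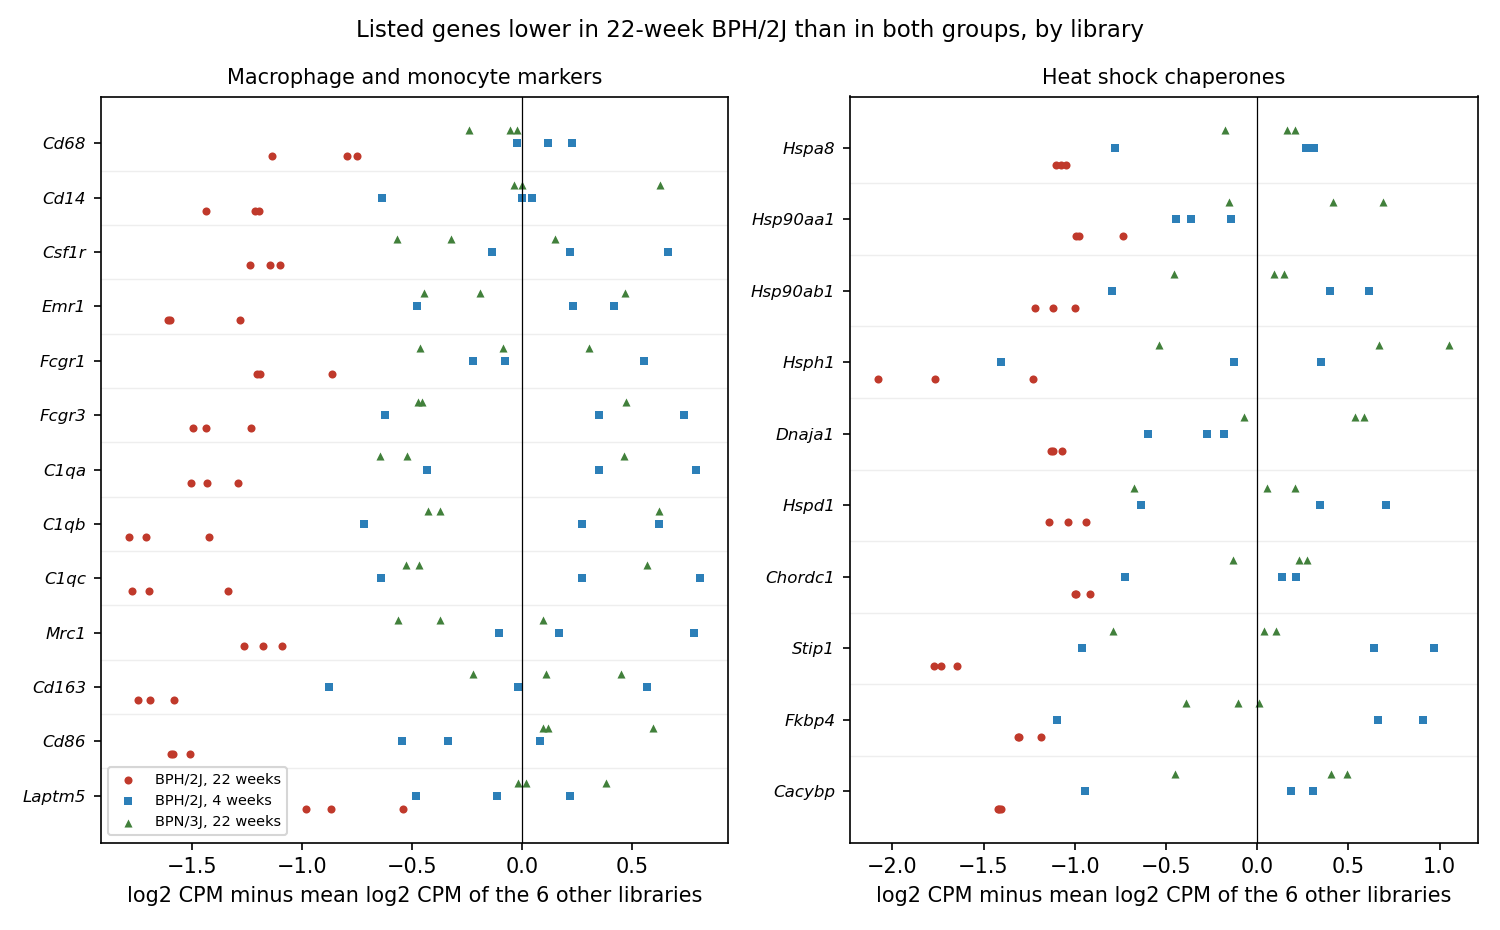
For the named genes of both lists that were lower than both groups, log2 CPM of every library minus the mean log2 CPM of the 6 other libraries, with macrophage and monocyte markers on the left and heat shock chaperones on the right. The red circles of 22-week BPH/2J are the lowest in every line but Hsph1, where 1 blue square of 4-week BPH/2J overlaps them.

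Among general endothelial markers, 5 of 25 tested members were higher than both groups (20%, against 5.86% of all tested genes) and 1 was lower. Esm1, endocan, a secreted proteoglycan of sprouting and activated endothelium, had 35.3, 37.6 and 43.2 CPM in 22-week BPH/2J, 24.4, 18.7 and 15.04 at 4 weeks and 7.73, 10.1 and 8.95 in BPN/3J (1.56 ± 0.13, adjusted p = 3.96e-05). The groups formed 3 steps without overlap. Emcn, endomucin, a sialoglycoprotein of capillary and venous surfaces, had 741, 616 and 656 CPM against 442, 452 and 372 and against 497, 529 and 421 (0.57 ± 0.09, adjusted p = 0.00129). Egfl7, Mmrn2 and the angiopoietin receptor Tek rose by less, with log2 differences of 0.26, 0.35 and 0.26. The call of Mmrn2 was lost with the cardiomyocyte covariate (largest adjusted p 0.454), and that of Tek with it (0.466) and without any 1 of the 22-week BPH/2J or BPN/3J libraries (0.0535 to 0.113). The Tek call was also lost with a replicate block.

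Cldn5, the main claudin of endothelial tight junctions, was the member that fell. It had 161, 172 and 189 CPM in 22-week BPH/2J, 300, 252 and 272 at 4 weeks and 257, 275 and 216 in BPN/3J (-0.59 ± 0.09, adjusted p = 0.000997). The calls of Emcn and Cldn5 were lost with the cardiomyocyte covariate (largest adjusted p 0.0522 and 0.601). The number of higher members was 3 without replicate 1 or 3 of 22-week BPH/2J or replicate 2 of BPN/3J, and 1 with the covariate. Cdh5, the cadherin of endothelial junctions, was not called (0.14 ± 0.07, adjusted p = 0.139), and Kdr, the main VEGF receptor, was higher than in BPN/3J (log2 difference 0.61) but not than in 4-week BPH/2J (-0.01, adjusted p = 0.923).

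Arterial markers rose in 5 of 24 tested members (20.8%) and fell in 1. Stmn2, a regulator of microtubules, had 167, 139 and 164 CPM in 22-week BPH/2J against 76.7 to 102 in the 6 others (0.84 ± 0.08, adjusted p = 0.0001). Mecom, a transcription factor of arterial identity, had 244, 226 and 236 CPM against 201, 151 and 150 in 4-week BPH/2J and 124, 124 and 134 in BPN/3J (0.69 ± 0.09, adjusted p = 0.00036). The others were Gja5, a connexin of arterial endothelium, the Notch ligand Jag1 and the elastic fibre protein Fbln5. The calls of Gja5 and Jag1 were lost without replicate 3 of 22-week BPH/2J (largest adjusted p 0.0888 and 0.1) and without replicate 2 of 4-week BPH/2J (0.0678 and 0.106), and that of Jag1 also without replicate 3 of 4-week BPH/2J (0.0576) and with the covariate (0.0814). Notch1 had 454, 459 and 434 CPM against 461 to 695 in the 6 others (-0.39 ± 0.10, adjusted p = 0.016), and its call was lost without any of 7 libraries, all but replicate 1 of 4-week BPH/2J and replicate 1 of BPN/3J (largest adjusted p 0.0561 to 0.168).

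The number of higher arterial markers was 2 without replicate 3 of 22-week BPH/2J, 3 without replicate 2 of 4-week BPH/2J and 9 without replicate 1 of 4-week BPH/2J. Endocardial markers rose in 3 of 16 (18.8%), Bmp4, Foxc1 and Tmem108, or in 5 without replicate 2 of 22-week BPH/2J and in 1 with the covariate. Of 19 heart capillary and 13 venous markers, 0 were apart from both groups in either direction, although 11 capillary markers were called in the averaged contrast. In the capillary list 13 of 19 members were higher than in 4-week BPH/2J while 6 were lower than in BPN/3J.

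Genes of the endothelial surface coat, the glycocalyx, rose in 6 of 33 tested members (18.2%) and fell in 1. The list as a whole was not raised over both groups. Its summed level was 8661 to 9442 CPM in 22-week BPH/2J, 9119 to 10892 CPM at 4 weeks and 7393 to 7918 CPM in BPN/3J. Hs3st1, a heparan sulfate sulfotransferase, had 28.6, 22.4 and 28.2 CPM in 22-week BPH/2J, 16.7, 20.6 and 15.5 at 4 weeks and 9.15, 11.6 and 11.9 in BPN/3J (0.93 ± 0.12, adjusted p = 0.000379). Hyal1, a hyaluronidase, had 22.5, 23.5 and 22.2 CPM against 13.9 to 16.2 in the 6 others (0.58 ± 0.07, adjusted p = 0.000257). Has3, which makes hyaluronan, rose as well by 0.68 ± 0.12, as did the sialomucin Podxl by 0.43 ± 0.09 and the sulfotransferase Chst15 by 0.36 ± 0.08, with Emcn as the sixth. Cd44, the hyaluronan receptor, fell, at 16.3, 21.0 and 24.6 CPM against 48.2, 48.8 and 52.2 in 4-week BPH/2J and 32.6, 26.0 and 29.8 in BPN/3J (-0.89 ± 0.12, adjusted p = 0.00049). The calls of Hyal1 and Cd44 were lost with the cardiomyocyte covariate (largest adjusted p 0.258 and 0.0736), where 3 members were higher and 0 lower.

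In the list of adhesion molecules, cytokines and chemokines, 3 of 35 tested members were higher than both groups and 6 were lower. Together they made up 25.7%, against 10.6% of all tested genes. Cxcl12, the homeostatic chemokine of endothelium, had 3453, 2991 and 3243 CPM in 22-week BPH/2J, 1855, 1711 and 1767 at 4 weeks and 1782, 1834 and 1854 in BPN/3J (0.84 ± 0.07, adjusted p = 2.75e-05). Here the other groups were within 1711 and 1855 CPM of each other and 22-week BPH/2J stood alone. Csf1, the growth factor of macrophages, had 165, 141 and 129 CPM against 82.8 to 106 in the 6 others (0.60 ± 0.09, adjusted p = 0.00113), a call lost with the covariate (largest adjusted p 0.101). Cxcl16 was the third that rose.

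The 6 lower members were the inflammatory chemokines Cxcl1, Cxcl2, Cxcl10, Ccl2 and Ccl7, and Tnfaip2. Cxcl2 had 9.40, 14.0 and 11.2 CPM in 22-week BPH/2J against 28.1 to 50.5 in the 6 others (-1.64 ± 0.19, adjusted p = 0.000229). Cxcl1 had 27.8, 31.6 and 35.1 CPM against 39.4 to 64.7 (-0.67 ± 0.09, adjusted p = 0.000594), a call lost with the covariate (largest adjusted p 0.0793). Macrophages also make several of these chemokines, and the macrophage markers moved in the same direction; their part in the result was not tested. The number of lower members was 2 without replicate 1 of 22-week BPH/2J or replicate 1 of BPN/3J, and 3 without replicate 3 of 22-week BPH/2J. With the covariate 1 member was higher and 4 were lower. The adhesion molecule Icam1 was not called in any contrast with 22-week BPH/2J (averaged -0.11 ± 0.10, adjusted p = 0.414).

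Wnt pathway genes rose in 5 of 32 tested members (15.6%) and fell in 0. Fzd6, a Wnt receptor, had 140, 137 and 131 CPM in 22-week BPH/2J, 101, 116 and 108 at 4 weeks and 28.9, 28.4 and 29.8 in BPN/3J (1.28 ± 0.05, adjusted p = 1.31e-07), so most of its gap lay between the lines. Apcdd1, a membrane-bound Wnt inhibitor, had 8.59, 9.07 and 7.93 CPM against 3.23 to 5.55 in the 6 others (1.00 ± 0.16, adjusted p = 0.00116). The transcription factor Tcf7, the norrin co-receptor subunit Tspan12 and Reck, a co-activator of Wnt7 signalling, were the others. The number was 3 without replicate 3 of 22-week BPH/2J and 3 with the covariate. The target gene Axin2 was not called in the averaged contrast, with 3.77 to 4.12 CPM in 22-week BPH/2J, 1.504 to 2.51 in 4-week BPH/2J and 3.07 to 6.46 in BPN/3J.

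In the TGF-beta and BMP pathway 3 of 38 tested members rose and 4 fell, 18.4% in all against 10.6% of all tested genes. The ligands Tgfb2 and Bmp4 and the latent TGF-beta binding protein Ltbp1 were higher than both groups. Ltbp1 had 154, 132 and 151 CPM in 22-week BPH/2J against 85.5 to 106 in the 6 others (0.62 ± 0.07, adjusted p = 0.000209). Bmp4 had 30.5, 31.7 and 32.86 CPM against 16.6 to 26.7 (0.54 ± 0.09, adjusted p = 0.00118). The receptor Tgfbr1, the ligand Bmp2 and the repressor Skil were among the lower ones. The number of lower members was 2 without any single library of 22-week BPH/2J and without replicate 2 or 3 of 4-week BPH/2J, and 1 with the covariate.

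Coagulation and fibrinolysis genes fell in 5 of 23 tested members (21.7%) and rose in 0. Plat, tissue plasminogen activator, had 111, 118 and 128 CPM in 22-week BPH/2J, 167, 191 and 191 at 4 weeks and 159, 172 and 174 in BPN/3J (-0.57 ± 0.07, adjusted p = 0.000244). The 22-week BPH/2J libraries lay below the 6 others, and the ranges of the other groups overlapped. Plaur, the urokinase receptor, S100a10, which binds plasminogen activators at the surface, and F13a1, a clotting factor subunit also found in macrophages, were also lower than both groups. The number was 3 without replicate 1 or 2 of 22-week BPH/2J. Vwf, von Willebrand factor, was higher than in 4-week BPH/2J alone (log2 difference 0.86, adjusted p = 0.00315), against 0.30 from BPN/3J (adjusted p = 0.191).

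**Figure D4:**
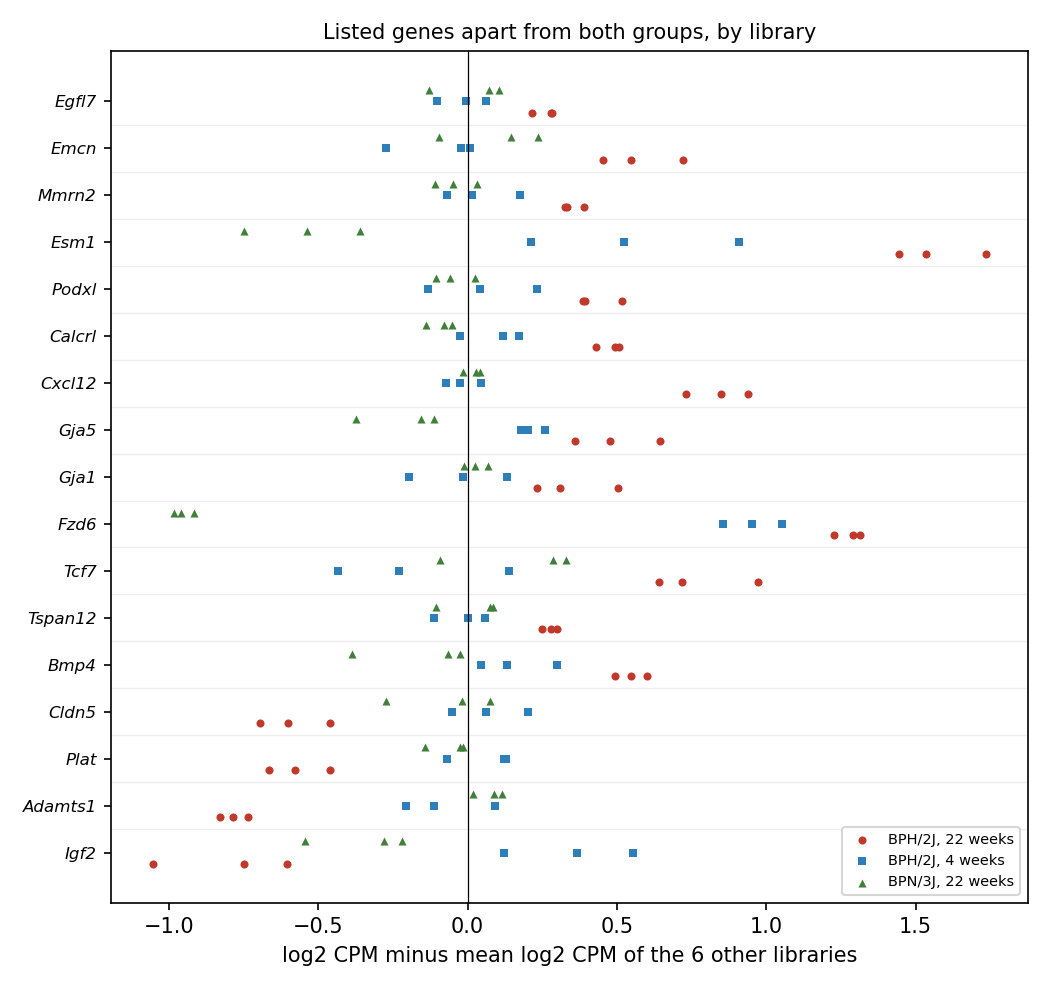
Log2 CPM of every library minus the mean log2 CPM of the 6 other libraries for 17 listed genes apart from both groups. The 22-week BPH/2J circles lie right of all other points from Egfl7 to Bmp4 and left of them from Cldn5 to Igf2. In some lines, such as Fzd6, Esm1 and Igf2, the other groups are set apart from each other as well.

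Among genes of vascular tone, the share apart from both groups was 13.8% for nitric oxide and cGMP. It was 4.35% for vasoactive peptides and their receptors, against 10.6% of all tested genes. Endothelial nitric oxide synthase, Nos3, had 268, 286 and 287 CPM in 22-week BPH/2J, 298, 351 and 363 at 4 weeks and 279, 283 and 283 in BPN/3J and was not called in the averaged contrast (-0.14 ± 0.07, adjusted p = 0.133). In the nitric oxide and cGMP list 3 of 29 tested members rose and 1 fell. Qdpr, which regenerates tetrahydrobiopterin, the cofactor of the synthase, had 77.9, 75.6 and 79.1 CPM against 68.3, 61.7 and 65.3 and against 48.3, 46.6 and 42.3 (0.51 ± 0.05, adjusted p = 0.000159). Arg2, an arginase that uses the same substrate as the synthase, had 2.66, 2.32 and 2.42 CPM against 1.04, 1.59 and 1.53 and against 0.506, 0.278 and 0.491 (1.67 ± 0.20, adjusted p = 0.000274). The call of Arg2 was lost without replicate 1 of 22-week BPH/2J (largest adjusted p 0.052) and with the covariate (0.0658). Spr, which makes the cofactor, was the third that rose, and Hsp90aa1, which binds the synthase, the member that fell.

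Among 23 tested vasoactive peptide and receptor genes, Calcrl alone was apart from both, at 322, 336 and 340 CPM against 235 to 269 in 4-week BPH/2J and 217 to 230 in BPN/3J (0.48 ± 0.06, adjusted p = 0.000224). Calcrl is the shared receptor of adrenomedullin and calcitonin gene-related peptide. The endothelin precursor Edn1 and the angiotensin-converting enzyme Ace were higher than in 4-week BPH/2J (log2 differences 0.77 and 0.75) and not called against BPN/3J (0.10 and 0.03). The apelin receptor Aplnr was called in the averaged contrast at 0.95 ± 0.11 but lay between the groups, with 365, 498 and 379 CPM in 22-week BPH/2J, 652 to 731 in 4-week BPH/2J and 56.9 to 73.5 in BPN/3J. Trpv4, a mechanosensitive calcium channel, and Klf2, a flow-responsive transcription factor, differed from BPN/3J alone (log2 differences 1.42 and -1.10), and Angpt2, an antagonist of Tek, lay between the groups.

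Targets of the YAP and TAZ coactivators, which respond to mechanical tension, rose in 4 of 23 tested members (17.4%) and fell in 1. The list as a whole did not rise, with 4 members higher and 6 lower in the averaged contrast. Its summed level was 3109 to 3400 CPM in 22-week BPH/2J, 3464 to 3772 CPM at 4 weeks and 3233 to 3886 CPM in BPN/3J. Igfbp3, a binding protein of insulin-like growth factors, had 480, 395 and 498 CPM in 22-week BPH/2J against 237 to 334 in the 6 others (0.73 ± 0.09, adjusted p = 0.000257). Crim1, a transmembrane protein that binds BMPs, had 258, 227 and 259 CPM against 180 to 191 (0.41 ± 0.06, adjusted p = 0.000515). Nt5e and Ankrd1 were the others that rose and Lats2, a kinase that restrains YAP, the member that fell. The call of Lats2 was lost in 8 of the 9 fits that each left out a library, all but that without replicate 1 of 4-week BPH/2J.

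Matrix genes moved in both directions, with 3 of 59 tested members higher and 3 lower, close to the background, and 5 lower without replicate 1 of 4-week BPH/2J. The fall of Loxl2, a lysyl oxidase that cross-links collagen, was alike against both groups: 22.3, 22.9 and 22.3 CPM in 22-week BPH/2J, 51.0, 55.2 and 46.4 at 4 weeks and 46.8, 48.5 and 55.5 in BPN/3J (-1.17 ± 0.08, adjusted p = 6.35e-06). In the separate list of matrix proteases and their inhibitors, 2 of 30 tested members, Mmp3 and Mmp11, were higher than both groups and 1, Adamts1, was lower. Their share of 10% was close to the 10.6% of all tested genes. The number of lower members was 2 without replicate 2 of 22-week BPH/2J and 2 with the covariate. Adamts1, a secreted protease, had 615, 597 and 636 CPM against 920 to 1150 in the 6 others (-0.79 ± 0.07, adjusted p = 6.84e-05). In Loxl2 and Adamts1 the 4-week BPH/2J and BPN/3J libraries overlapped and were not called different (adjusted p = 0.878 and 0.168).

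Imprinted growth genes fell in 4 of 18 tested members (22.2%) and rose in 1. Igf2, a fetal growth factor, had 198, 160 and 219 CPM in 22-week BPH/2J, 362, 430 and 489 at 4 weeks and 228, 286 and 274 in BPN/3J (-0.80 ± 0.12, adjusted p = 0.001). Meg3, a non-coding RNA, had 2.24, 2.45 and 2.16 CPM against 6.07, 4.93 and 5.37 and against 8.20, 7.64 and 14.6 (-1.70 ± 0.22, adjusted p = 0.000453). Peg3 and Peg10 fell by 0.79 and 0.93 on the log2 scale. For Igf2 the nearer group was BPN/3J and for the other 3 it was 4-week BPH/2J. Gnas, a stimulatory G protein subunit, rose (0.34 ± 0.06), and its call was lost without replicate 3 of 22-week BPH/2J or replicate 1 or 2 of BPN/3J (largest adjusted p 0.0876, 0.0742 and 0.0624). The Gnas call was also lost with the cardiomyocyte covariate. Without replicate 1 of 4-week BPH/2J 3 members rose, without replicate 2 of that group 2 did, and with the covariate 2 fell.

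Clock genes split by direction, with 2 of 22 tested members higher and 3 lower, 22.7% in all against 10.6% of all tested genes. Besides Dbp, the repressor Nr1d1 had 249, 241 and 268 CPM in 22-week BPH/2J, 167, 205 and 196 at 4 weeks and 71.3, 90.8 and 114 in BPN/3J (0.94 ± 0.12, adjusted p = 0.000377). Its call was lost without any single library of 22-week BPH/2J, replicate 1 or 3 of 4-week BPH/2J or replicate 2 of BPN/3J (largest adjusted p 0.0538 to 0.108). Nfil3, a repressor of Dbp targets, and the kinases Csnk1d and Csnk1e were lower, and the number of lower members was 0 without replicate 1 or 2 of 22-week BPH/2J or replicate 3 of 4-week BPH/2J and 1 without replicate 3 of 22-week BPH/2J, replicate 2 of 4-week BPH/2J or replicate 2 of BPN/3J. With the cardiomyocyte covariate 5 members were higher and 1 was lower. The core member Per2 was not apart from both groups, with 134 to 189 CPM in 22-week BPH/2J, 93.9 to 165 in 4-week BPH/2J and 412 to 542 in BPN/3J. The hour of collection is not in the labels, and its part in the result was not tested.

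Glucocorticoid receptor targets were lower than both groups in 4 of 29 tested members (13.8%), Fkbp5, Sgk1, Dusp1 and Cdkn1a, and higher in 0. Cdkn1a, a cyclin-dependent kinase inhibitor, had 59.3, 75.2 and 69.5 CPM in 22-week BPH/2J, 121, 147 and 147 at 4 weeks and 373, 369 and 354 in BPN/3J (-1.73 ± 0.09, adjusted p = 1.56e-06). Dusp1, a MAP kinase phosphatase, had 588, 647 and 676 CPM against 748 to 767 and 1180 to 1366 (-0.62 ± 0.07, adjusted p = 0.000209). In the averaged contrast 15 members were lower, and 23 were lower than in BPN/3J. Against 4-week BPH/2J 5 members were lower and 10 higher, so most of the averaged count came from the BPN/3J side. The summed level was 3697 to 3804 CPM in 22-week BPH/2J, 3358 to 3793 CPM at 4 weeks and 7583 to 7974 CPM in BPN/3J. The call of Dusp1 was lost without replicate 1 or 2 of 22-week BPH/2J or replicate 2 or 3 of 4-week BPH/2J (largest adjusted p 0.0549 to 0.129), and the number of members was 2 without replicate 1 or 2 of 22-week BPH/2J or replicate 3 of 4-week BPH/2J.

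Immediate early genes, induced within minutes of a stimulus, were lower than both groups in 4 of 37 tested members (10.8%), and higher in 0. The 4 were Fosl2, Dusp1, Maff and Arc. Fosl2, a subunit of AP-1, had 115, 112 and 123 CPM in 22-week BPH/2J against 147 to 183 in the 6 others (-0.49 ± 0.07, adjusted p = 0.000501), a call lost with the covariate (largest adjusted p 0.252). In this list 26 members were lower than in BPN/3J and 5 lower than in 4-week BPH/2J. The number apart from both was 2 without replicate 1 or 2 of 22-week BPH/2J and 2 with the covariate.

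Genes of DNA replication and mitosis gave the widest divergence between the averaged contrast and the stricter rule. Of 66 tested members, 63 were lower in the averaged contrast, against 17.1% of all tested genes. Only 5 were lower than both groups (7.58%, against 4.73% of all tested genes). Against 4-week BPH/2J 65 members were lower, and against BPN/3J 5 were lower and 10 higher. Mcm6, a helicase subunit, was one of the 5, with 23.7, 32.7 and 27.3 CPM in 22-week BPH/2J, 93.3, 78.4 and 89.9 at 4 weeks and 61.8, 54.2 and 56.5 in BPN/3J (-1.35 ± 0.10, adjusted p = 1.84e-05). Kif23, a kinesin of cytokinesis, had 6.81, 10.8 and 7.28 CPM against 50.7 to 60.7 and 12.8 to 15.7 (-1.74 ± 0.15, adjusted p = 3.74e-05), and its call was lost with the covariate (largest adjusted p 0.0824). The others were Cdc6, E2f7 and Ezh2. Mki67, by contrast, had 15.3, 39.6 and 19.98 CPM in 22-week BPH/2J and 11.5 to 23.5 in BPN/3J. Without replicate 2 of 22-week BPH/2J, the highest of its group in Mki67, 10 members were lower than both.

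**Figure D5:**
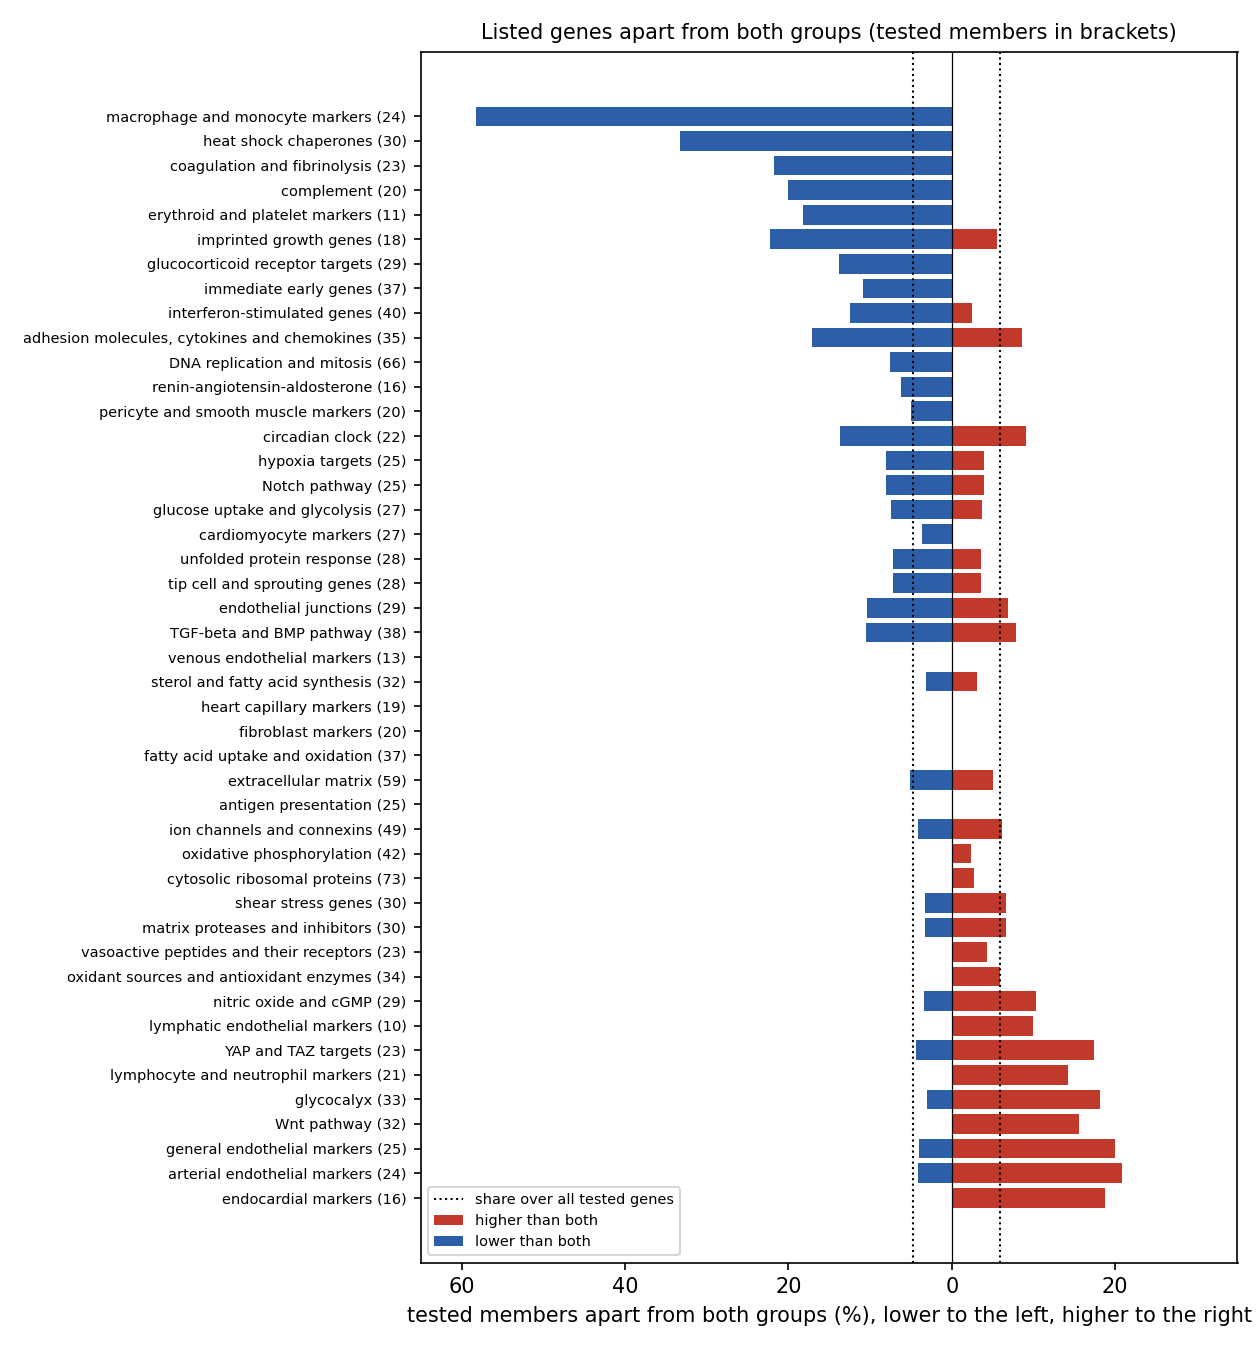
Share of tested members apart from both groups for 45 gene lists with at least 10 tested members, with members lower than both drawn to the left and higher to the right as percentages. Dotted lines mark the shares over all tested genes, 4.73% lower and 5.86% higher. Macrophage and monocyte markers at 58.3% and heat shock chaperones at 33.3% reach furthest to the left.

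Several lists held no gene apart from both groups. These were the 25 tested genes of antigen presentation, 37 of fatty acid uptake and oxidation and 20 fibroblast markers, beside the capillary and venous markers. Without a single library at most 1 gene of antigen presentation, 2 of fatty acid metabolism, 0 of the fibroblast markers, 2 of the capillary and 2 of the venous markers were apart. The libraries behind these were replicate 1 of 4-week BPH/2J for antigen presentation, fatty acid and capillary genes, replicate 2 of 22-week BPH/2J for fatty acid, capillary and venous genes and replicate 3 of BPN/3J for capillary genes. In antigen presentation 17 members were lower than in BPN/3J while 10 were higher than in 4-week BPH/2J. Of the other cell types, 1 of 27 cardiomyocyte markers and 1 of 20 pericyte and smooth muscle markers were lower than both, Atp2a2 and Steap4. The call of Atp2a2 was lost without replicate 3 of 22-week BPH/2J or of BPN/3J (largest adjusted p 0.0509 and 0.0598), that of Steap4 with the covariate (0.0776). The most abundant markers per length of cardiomyocytes and fibroblasts, Mb and Gsn, were not called in the averaged contrast (adjusted p = 0.757 and 0.13).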

How the data were processed

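RNA sequencing was done on 9 libraries of mouse heart endothelium, 3 in each of 3 groups set by strain and age in the labels. Per the labels' protocols, polyadenylated RNA was fragmented, copied with random hexamers and read as single reads. The submitters' processing notes name CASAVA 1.8.2, TopHat2 2.0.13, featureCounts, edgeR and the build mm9, with no roles or settings. Whether counting used strand is not given in the sources used here. Antisense and overlapping genes are therefore uncertain. The authors deposited a table of 18094 genes with raw counts, per the file headers, and CPM values, which equal counts over column totals and were used only for that check. The authors' own fold changes and p-values were not used. Deposited gene lengths served for levels per length (unit other in the deposited table). A spreadsheet had turned 21 symbols into dates, which were restored through Ensembl identifiers in GENCODE M21. A further 854 genes had no symbol.

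Genes were filtered with filterByExpr (15277 left) and scaled by TMM, and edgeR 4.0.16 (R 4.3.3) fitted all 9 libraries by group with its quasi-likelihood method, with two-sided F tests and Benjamini-Hochberg adjustment over all tested genes. An SE is the absolute log2 difference over the square root of F. A count of 3 per library, the limit that a count of 0 allows, equals 0.0911 to 0.104 CPM, for counting error only. Nothing in the labels says that replicates are separate animals, so a p-value reflects only how far these 9 libraries vary, perhaps for technical reasons. Named were the 15 higher and 15 lower genes with the widest nearer gap (at least 5 CPM in the highest group, no overlap with the 6 other libraries, no predicted or clone symbol), the 2 apart members per direction with the smallest adjusted p of each described list, 12 endothelial genes with any outcome, and the most abundant marker per length of each other cell type. Other members of the lists are named where a count of them is given. Members and lists were chosen with earlier results of these data known. The steps were run on simulated data in which the 4-week BPH/2J and BPN/3J groups had equal levels. In the real libraries 53.1% of tested genes were called between these groups, a setting the simulation does not cover. Alternatives used DESeq2 1.42.0 and limma 3.58.1. Figures were drawn with matplotlib 3.10.9 in Python 3.11.15. A few genes that met the naming rule or are members of a list are not reported here.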

Additional observations from a re-analysis of the deposited data

How the results depend on the processing

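The counts of calls in each contrast, of genes apart from both groups and of list members apart were recomputed under other scalings, filters and tools, stricter rules, a replicate block, a cardiomyocyte covariate and without each library. Scaling, filter and tool changed the number apart from both groups little (1566 to 1711), with 1541 of the 1617 genes shared under upper-quartile scaling, where 61.7% were higher in place of 55.3%. Equal replicate numbers did not pair libraries (residual correlations -0.16 to 0.08 between equal numbers), and a fit with a replicate block gave 1412 genes apart, 1359 of them shared. An adjusted p under 0.01 gave 2814 genes in the averaged contrast (1486 higher, 1328 lower), 3871 against 4-week BPH/2J (1789, 2082), 3432 against BPN/3J (1738, 1694) and 644 apart from both (353, 291). A difference of at least 1.5-fold gave 1974 (901, 1073), 2722 (1377, 1345), 2597 (1088, 1509) and 522 (251, 271), and 4181 (1963, 2218) for 4-week BPH/2J against BPN/3J. With the cardiomyocyte covariate 3131 genes differed from BPN/3J (1555, 1576), 1967 between the other groups (1091, 876) and 581 were higher than both. With the 6 other libraries as a single group the averaged contrast called 753 (413, 340), where the difference between those groups enters the spread.

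Without 1 library the averaged contrast called 3302 to 6908 genes (1800 to 3605 higher, 1484 to 3303 lower), and 994 to 2459 were apart from both (582 to 1370 higher, 406 to 1089 lower). Calls against 4-week BPH/2J ran from 4606 to 7383 (2235 to 3703, 2359 to 3680), against BPN/3J from 4362 to 7117 (2270 to 3727, 2092 to 3390) and between the other groups from 6968 to 8682 (3686 to 4473, 3282 to 4209). Of 117 named genes apart from both, 92 to 114 kept the call without 1 library, 117 in DESeq2, 109 with the replicate block and 72 with the covariate, and 0 reversed. The uncalled averaged differences of Mb (0.40 with the covariate, -0.19 to 0.046 without 1 library), Gsn (0.14 with the covariate) and Hbb-bs (0.074 with the covariate) changed sign. Genes under about 0.1 CPM lie at the limit of depth. The cause of these shifts was not tested.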

Other observations

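A few further genes outside the groups above were apart from both groups. Wt1, a transcription factor of the epicardium that is also made by some endothelial cells, had 56.9, 61.1 and 46.4 CPM in 22-week BPH/2J, 93.0, 114 and 111 in the 4-week mice and 125, 124 and 114 in BPN/3J (log2 difference -1.05 ± 0.10, adjusted p = 5.26e-05, edgeR). Krt19, a keratin of the mesothelium, was lower too, at 0.519, 1.26 and 0.515 CPM against 1.89 to 6.74 in the 6 others (-2.15 ± 0.28, adjusted p = 0.000459). Of 8 tested members of the list of adipocyte, mesothelial and glial markers, these 2 were lower than both groups and 0 were higher, while the median averaged log2 difference of the list was 0.45. The number lower stayed at 2 without any single library.

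Hspa5, the HSP70 of the endoplasmic reticulum, was lower with 504, 568 and 506 CPM against 916 to 1276 among the 4-week mice and 716 to 819 in BPN/3J (-0.81 ± 0.10, adjusted p = 0.000378). It was 1 of 2 members of the unfolded protein response list that fell below both groups, and 1 member rose above them. The share apart in this list was 10.7%, close to the 10.6% of all tested genes. Without replicate 1 of 4-week BPH/2J the number that fell was 5, and with the cardiomyocyte covariate it was 9.

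Annotated pseudogenes made up 0.68% of the genes apart from both groups and 2.34% of all tested genes. Among the 3 loci C1qa, C1qb and C1qc, replicate 1 of 4-week BPH/2J was the lowest of its group in each, and replicate 1 of BPN/3J was the highest of its group in each.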
